A study of Mus musculus with 24 samples.

Results

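Cells in which P16Ink4a was silenced were compared directly with cells in which it was overexpressed. Of the 24 RNA sequencing libraries of the study, 6 belong to this comparison, namely the Cd146+ cells with P16 shRNA (replicates 3, 5 and 6) and those with P16 (replicates 1, 3 and 5). The study calls them liver endothelial sinusoidal cells, while the labels name only liver endothelial cells and Cd146. The defining sinusoidal genes Stab2 and Clec4g were nearly absent in all 6 libraries. The endothelial genes Pecam1, Cdh5 and Erg were far lower in 2 of them than in the others. The cells are therefore called Cd146+ cells here. Both groups were picked by construct and population as labelled, and they are the Cd146+ groups with the lowest and the highest Cdkn2a. The study asked what P16Ink4a does in liver endothelial cells and set each construct against its own vector control, whereas here the extremes are set against each other. The other Cd146+ libraries, 3 with nc shRNA and 3 with empty vector, are the controls of the vectors. They share only replicate number 5, so vector and replicate make-up cannot be told apart in their difference, called the vector difference below. They also enter the scaling of the levels and the fit with a replicate block described below.

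All cells came from livers of female C57BL/6 mice of 3 months according to the methods, were purified with Cd146 MicroBeads in magnetic columns, grown in RPMI medium with fetal calf serum, transduced with lentivirus and harvested 1 week later. The hairpin against P16Ink4a was carried by the pLKO.1 vector, in which nc shRNA is the non-coding control. The P16 construct expresses the P16Ink4a cDNA fused to GFP from pLenti-C-mGFP-P2A-Puro, and its control is the same vector without the cDNA. No group of untransduced cells is part of the comparison, and construct and vector cannot be told apart in it. The labels do not state whether replicates are separate animals, so the p-values measure the spread between these libraries.

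P16Ink4a, a product of the Cdkn2a gene, binds the cyclin-dependent kinases Cdk4 and Cdk6 and keeps them from phosphorylating the retinoblastoma protein. Unphosphorylated retinoblastoma protein holds back the E2F transcription factors, whose targets serve DNA replication and, with the DREAM and MuvB complexes, mitosis. Cdkn2a also encodes p19Arf from another first exon, a protein that stabilises p53 by binding Mdm2, and a gene-level count does not separate the products. Liver sinusoidal endothelial cells line the fenestrated capillaries of the liver and are known for scavenger receptors such as the stabilins.

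The 6 libraries hold 18031274 to 26470392 counts each, so that 3 counts, taken as the floor, correspond to 0.113 to 0.166 CPM. CPM is the count relative to the library total. Levels below are CPM scaled with TMM factors over the 12 Cd146+ libraries, and libraries are named in the order P16 shRNA replicates 3, 5 and 6, then P16 replicates 1, 3 and 5. Summed endothelial genes were higher in 4 of the 6 libraries than in both libraries numbered 3. In these 4 they summed to 2237 to 3185 CPM, against 551 CPM in P16 shRNA replicate 3 and 560 CPM in P16 replicate 3. Collagen and mesenchymal genes summed to 65957 CPM or more in the same 4 libraries. Tek was at 8.3 CPM or below and Kdr at 22.5 CPM or below in them, and Stab1 was at 29.2 CPM in P16 replicate 1. The endothelial gene Pecam1 was at 3.98, 218 and 233 CPM in the P16 shRNA libraries and at 254, 6.72 and 280 CPM in the P16 libraries, and Cdh5, Erg and Stab1 were likewise lowest in both libraries numbered 3. Stab2 and Clec4g, defining genes of sinusoidal endothelium, were at 0.56 CPM or below in all 6, while the collagen gene Col1a1 was between 4429 and 13231 CPM. Y-linked Ddx3y was at 112 CPM in P16 shRNA replicate 3 and at 120 and 118 CPM in P16 replicates 1 and 3, where Xist was at 0.171 CPM or below, although the methods name female mice. The other 3 libraries had no Ddx3y count. Results that rest on the libraries numbered 3 are given with and without them. In bulk RNA fewer cells of a type and less RNA per cell cannot be told apart.

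**Figure D1:**
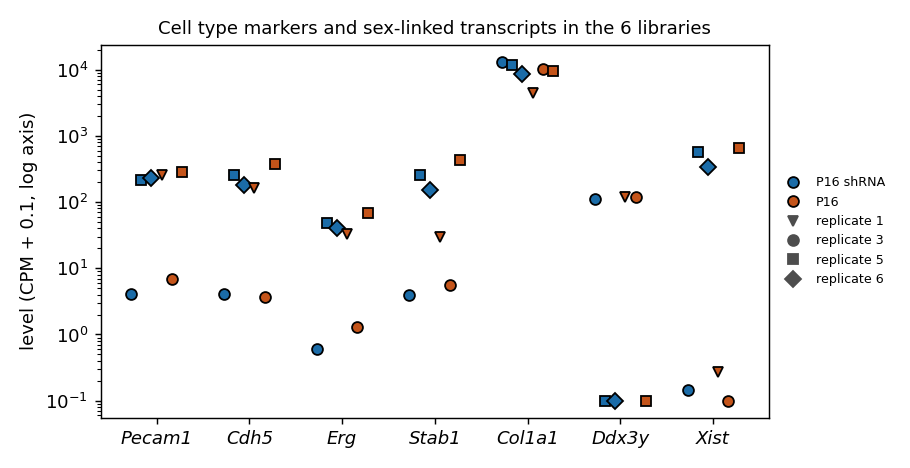
Levels of endothelial genes (Pecam1, Cdh5, Erg, Stab1), a collagen gene (Col1a1) and sex-linked transcripts (Ddx3y, Xist) in the 6 libraries, as CPM + 0.1 on a log axis, with 1 point per library. Both libraries numbered 3 (circles) sit below the others for the endothelial genes, and 3 of the 6 libraries hold Ddx3y.

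Cdkn2a, the gene both constructs address, was at 7.66, 11.5 and 27 CPM in the P16 shRNA libraries and at 855, 425 and 232 CPM in the P16 libraries. The groups did not overlap, and the level in the P16 shRNA cells was 3.05% of that in the P16 cells (log2 fold change -5.04, SE 0.72, edgeR blocked adjusted p = 0.00471). With 3 libraries against 3, the exact two-sided permutation p was 0.1, the smallest this design can give. The nc shRNA libraries had 200, 125 and 97.0 CPM and the empty vector libraries 69.8, 105 and 104 CPM, between both groups. This checks the labels and is no finding, since the groups are defined by their constructs, and the count does not tell the cDNA from endogenous transcripts.

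**Figure D2:**
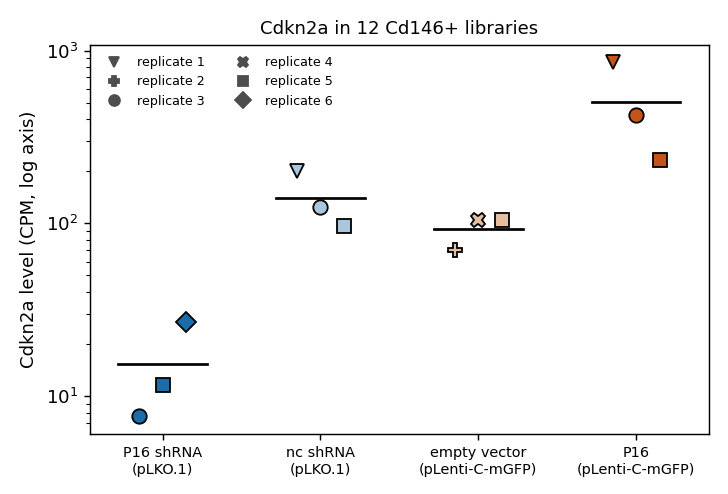
Cdkn2a level in CPM on a log axis in the 12 Cd146+ libraries by construct, with 1 point per library shaped by replicate number and the group mean as a line. The P16 shRNA libraries lie lowest (7.66 to 27 CPM), the P16 libraries highest (232 to 855 CPM), and both vector controls between them.

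Over 14941 genes tested with edgeR, 797 (5.33%) were higher and 866 (5.8%) lower in P16 shRNA than in P16 cells at an unadjusted p under 0.05. None (0%) passed an adjusted p under 0.05, so these genes are called higher or lower at an unadjusted p and not as changed at a false discovery rate. At an adjusted p under 0.05 the Wald test of DESeq2 called 111 genes higher (0.881%) and 207 lower (1.64%). Libraries with the same replicate number deviated together. With the number as a block over the 12 libraries, 801 genes (5.03%) were higher and 1075 (6.75%) lower at an edgeR adjusted p under 0.05. In that fit the contrast rests on numbers 3 and 5, which both groups hold, and on number 1 through nc shRNA, and P16 shRNA replicate 6 carries no weight. With the number as a block over the 6 compared libraries alone, 0 genes passed an edgeR adjusted p, and 1243 were higher and 1566 lower at an unadjusted p. The 77 genes of the naming rule that passed an unadjusted p had an adjusted p from 0.366 to 0.448 without the block, and the adjusted p of the block over 12 libraries is given as the blocked adjusted p. Log2 fold changes and SE are from the 6 libraries without the block, and the blocked fold change is added where it differs by more than 1.5 times. Without both libraries numbered 3, 572 genes (3.74%) were higher and 899 (5.88%) lower at an unadjusted p. The count of genes at an unadjusted p was 772 without P16 replicate 1 and 1096 without P16 shRNA replicate 5. The 3 libraries of one group all lay above the 3 of the other for 1552 genes (10.4%) higher and for 1302 genes (8.71%) lower. The median log2 fold change of all genes was 0.01.

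Genes of the interferon response were higher in the P16 shRNA cells. This list holds antiviral effectors, their regulators and the guanylate-binding and Irg GTPases, which cells make after type I or type II interferon binds its receptor and transcription factors such as Irf9 reach interferon-stimulated response elements (ISRE) in promoters. Of its 83 genes 80 passed the filter on low counts, 62 were higher and 1 was lower at an unadjusted p, and the median log2 fold change was 2.46 against 0.01 over all genes. With the replicate block 43 were higher and 2 lower at an adjusted p, and with DESeq2 42 and 1. The mean log2 CPM of the list was 6.40, 4.71 and 4.31 in the P16 shRNA libraries and 2.17, 2.60 and 3.08 in the P16 libraries. The groups did not overlap, and P16 shRNA replicate 3 stood above the rest. Without it the median was 1.34, and without both libraries numbered 3 it was 1.36 with 53 genes higher at an unadjusted p. Within replicate number 3 the median difference was 3.75 and within number 5 it was 1.39, and 77 and 78 of the 80 genes were higher. With a term for Y-linked transcripts the median was 2.46.

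The promoters of these genes were searched to describe the list, whose members were higher together. Lines are printed only for named members with an unadjusted p under 0.05 that hold the letters searched for. They are examples, and the shares over all promoters are given below. RefSeq promoters (build GRCm38.p6, from 250 bases before to 50 bases after a start) were matched by symbol for 63 of the 83 genes, 63 of the 75 genes of the mitosis list described further on, and 34 of the 42 genes of the S phase list. Each line gives the 150 bases before the start on the strand of the gene, with the letters GAAANNGAA, the core of the ISRE, or their reverse complement in capitals. Overlapping matches form 1 run. The stretch of Isg15, a ubiquitin-like antiviral protein, is chr4:156200819-156200968 on the minus strand. That of Bst2, which tethers budding virus, is chr8:71537473-71537622 on the minus strand. That of Irgm1, a GTPase acting in autophagy of pathogens, is chr11:48871421-48871570 on the minus strand. That of Apol9b, of the apolipoprotein L family, is chr15:77728922-77729071 on the plus strand.
Isg15: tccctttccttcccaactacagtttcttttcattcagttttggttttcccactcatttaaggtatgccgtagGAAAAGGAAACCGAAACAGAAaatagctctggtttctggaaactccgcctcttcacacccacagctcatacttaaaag
Bst2: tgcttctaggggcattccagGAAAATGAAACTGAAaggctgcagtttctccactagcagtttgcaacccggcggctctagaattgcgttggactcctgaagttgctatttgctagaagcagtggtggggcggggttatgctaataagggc
Irgm1: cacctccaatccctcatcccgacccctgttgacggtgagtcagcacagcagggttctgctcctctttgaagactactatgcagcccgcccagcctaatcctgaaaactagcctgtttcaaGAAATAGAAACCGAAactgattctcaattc
Apol9b: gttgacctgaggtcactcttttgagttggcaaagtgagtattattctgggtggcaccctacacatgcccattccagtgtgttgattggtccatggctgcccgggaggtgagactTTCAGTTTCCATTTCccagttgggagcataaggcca

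These letters, on either strand, were found in 46 of 82 promoters of the list (56.1%) and in 8.56% of all 32851 promoters of this length. The list was made of interferon response genes, so this share describes the list and is no test of the contrast. In the mitosis list they were in 10% and in the S phase list in 2.56% of promoters. The 39 tested interferon response genes with the motif had a median log2 fold change of 2.55 and the 22 without it 1.66. Over all tested genes with a promoter, the median was 0.07 for the 931 genes with the motif and 0.01 for the 9815 without it.

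Among single genes, the smallest p of the whole comparison was that of Apol9b, at 49.6, 17.0 and 26.7 CPM with P16 shRNA and at 0.8, 0.896 and 1.15 CPM with P16. All P16 shRNA libraries lay above all P16 libraries (log2 fold change 5.01, SE 0.49, blocked adjusted p = 0.012). Its close copy Apol9a differed by 3.92, and since reads may be shared between the copies their separate values are uncertain. Isg15 was at 330, 97.4 and 113 CPM with P16 shRNA and at 1.37, 6.89 and 6.17 CPM with P16. The groups were far apart, with replicate 3 highest (log2 fold change 5.21, SE 0.83, blocked adjusted p = 0.00958). Bst2, at 543, 239 and 318 CPM against 31.3, 26.4 and 81.8 CPM, also did not overlap (2.96, SE 0.56, blocked adjusted p = 0.113), but did not pass the threshold with the block. Irgm1 was at 496, 217 and 182 CPM against 75.3, 181 and 103 CPM, with P16 replicate 3 next to the lowest P16 shRNA library (1.31, SE 0.50, blocked adjusted p = 0.00197). Without P16 shRNA replicate 3 Irgm1 differed by 0.72 and no longer passed an unadjusted p, and the call was also lost without P16 replicate 1 or 5. The abundant membrane protein gene Ifitm3, which blocks virus entry, differed less (773, 433 and 521 against 277, 353 and 292 CPM, log2 fold change 0.90, SE 0.26, blocked adjusted p = 0.0163). Ifitm1 of the same family was the 1 member called lower, with -2.51 at 0.385 to 0.974 CPM against 2.21 to 5.04 CPM, and is named after its values were seen.

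The regulators of the response lay on the same side. Stat2, a transcription factor of the type I interferon response, was at 184, 69.6 and 42.6 CPM with P16 shRNA and at 21.1, 20.7 and 29.0 CPM with P16, with no overlap (log2 fold change 2.06, SE 0.56, blocked adjusted p = 0.0444). Irf7, a factor that drives interferon genes, was at 186, 37.6 and 37.0 against 2.46, 5.26 and 4.52 CPM (4.40, SE 0.81, blocked adjusted p = 0.021), and Usp18, which removes Isg15 from proteins and dampens receptor signalling, differed by 5.18. For both Stat2 and Irf7, P16 shRNA replicate 3 was the highest of the 6 libraries, and without it Stat2 differed by 1.24.

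Upstream of them fewer genes were called than in the interferon response. In the list of nucleic acid sensing and interferon signalling, 11 of 33 tested genes were higher and none lower at an unadjusted p, with a median of 0.29. With the replicate block 12 were higher, and with DESeq2 7. Without the libraries numbered 3 the median was 0.19 with 8 higher at an unadjusted p. The sensor Ddx58, which binds viral RNA, was among them (316, 106 and 84.4 against 32.2, 67.9 and 52.6 CPM, log2 fold change 1.72, SE 0.58, blocked adjusted p = 0.0215). Without P16 shRNA replicate 3 Ddx58 differed by 0.88, and without P16 replicate 1 or 5 it did not pass an unadjusted p. The receptor chain Ifnar1 was at 97.0, 95.2 and 78.4 against 106, 131 and 100 CPM (edgeR adjusted p = 0.534, blocked adjusted p = 0.169), and the receptor kinase Jak1 overlapped between the groups (edgeR adjusted p = 0.467, blocked adjusted p = 0.128). Ifnb1, the gene of interferon beta, had 8, 0 and 1 counts with P16 shRNA and none with P16, too few to test.

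Antigen presentation by class I molecules followed the same direction, with 14 of 22 tested genes higher and none lower at an unadjusted p and a median of 0.94. At an adjusted p 8 were higher with the replicate block and 4 with DESeq2. Without the libraries numbered 3 the median was 0.55 with 9 higher at an unadjusted p. The class I heavy chain gene H2-K1 was at 508, 113 and 130 CPM with P16 shRNA and at 28.5, 26.4 and 62.9 CPM with P16, with replicate 3 again highest (log2 fold change 2.66, SE 0.72, blocked adjusted p = 0.192). Its log2 fold change without the libraries numbered 3 was 1.38. The common light chain gene B2m was at 1386, 557 and 644 against 408, 446 and 344 CPM (1.11, SE 0.38, blocked adjusted p = 0.042), and the immunoproteasome subunit Psmb8 differed by 3.21. Without P16 shRNA replicate 3 these differences were 1.60 for H2-K1, 0.57 for B2m and 2.01 for Psmb8, and B2m lost its call without P16 replicate 1 or 5. The chaperones Calr, Canx and Pdia3, which serve all glycoproteins, overlapped between the groups.

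Of the inflammatory chemokines and caspases, 8 of 31 tested genes were higher and 1 lower at an unadjusted p, with a median of 0.51. Without the libraries numbered 3 the median was 0.40 with 5 higher and 2 lower. Il6, an acute-phase cytokine, was at 49.96, 54.5 and 54.4 CPM with P16 shRNA and at 22.3, 17.3 and 29.8 CPM with P16. The P16 shRNA libraries were close together and above all P16 libraries (log2 fold change 1.19, SE 0.23, blocked adjusted p = 0.00471). Casp4, the inflammatory caspase of the non-canonical inflammasome, was at 31.1, 20.5 and 24 against 9.09, 13.1 and 12.6 CPM (1.11, SE 0.25, blocked adjusted p = 0.042). Cxcl10, a chemokine for T cells and itself an interferon target, ranged from 3.69 to 83.5 CPM against 0.229 to 0.753 CPM (5.94, SE 1.39, blocked adjusted p = 0.0117), and differed by 3.64 without P16 shRNA replicate 3. Ccl5 ranged from 1.95 to 17.5 CPM against 0.0571 to 1.05 CPM and had a blocked adjusted p of 0.129. It differed by 2.08 without P16 shRNA replicate 3, and lost its call without that library or without P16 replicate 1 or 3. Ccl9 was at 5.18, 10.3 and 9.08 against 1.09, 1.29 and 3.76 CPM (blocked adjusted p = 0.0119). Ccl2, which draws monocytes, overlapped between the groups at 451, 210 and 187 against 60.5, 204 and 124 CPM (edgeR adjusted p = 0.48, blocked adjusted p = 0.0328), and within numbers 3 and 5 it was higher by 1.15 and 0.76. Ccl12 stayed at 2.14 CPM or below in all 6 libraries, Tnf had at most 15 counts and Mmp7 none.

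**Figure D3:**
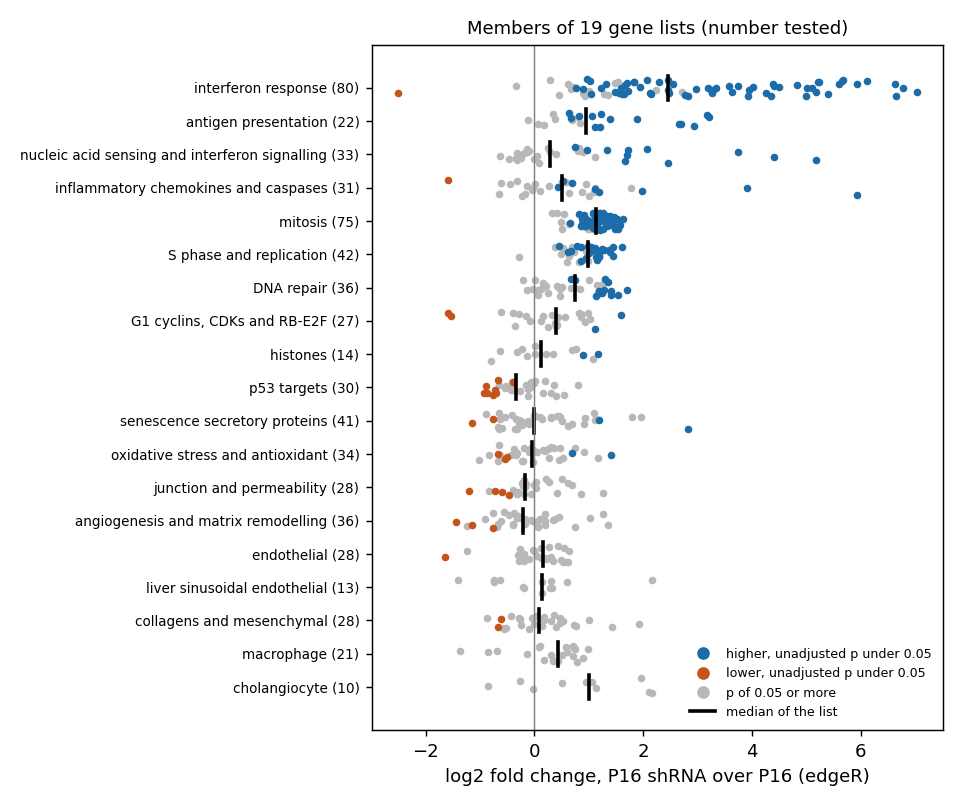
Log2 fold change of P16 shRNA over P16 for each tested member of 19 gene lists, with blue for higher and orange for lower at an unadjusted edgeR p under 0.05, grey for the rest and a black bar for the median. The interferon response (median 2.46) and the cell cycle lists (mitosis 1.14, S phase 0.98) lie to the right of 0, the p53 targets (-0.34) to the left, and the endothelial list (0.16) around 0.

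Genes of mitosis were higher in the P16 shRNA cells in a narrow range. All 75 tested genes had a positive log2 fold change, from 0.33 to 1.63 with a median of 1.14, and 60 were higher and none lower at an unadjusted p. With the replicate block 54 were higher at an adjusted p, with DESeq2 4, and without the libraries numbered 3 the median was 0.93 with 25 higher at an unadjusted p. The mean log2 CPM of the list was 5.47, 4.81 and 4.70 in the P16 shRNA libraries and 3.14, 4.14 and 4.23 in the P16 libraries, so the groups did not overlap and the range was set by P16 shRNA replicate 3 and P16 replicate 1. Within number 3 the median difference was 1.39 with 75 genes higher, and within number 5 it was 0.61 with 73 higher. With a term for Y-linked transcripts the median was 1.16.

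Aurka, the kinase of centrosome maturation, was at 57.8, 33.0 and 40.3 CPM with P16 shRNA and at 9.2, 18.3 and 17.7 CPM with P16, with no overlap (log2 fold change 1.52, SE 0.35, blocked adjusted p = 0.0275). Cdca8 and Birc5, subunits of the chromosomal passenger complex, were at 31, 29.2 and 38.5 against 6.23, 12.3 and 15.3 CPM and at 63.2, 34.3 and 45.1 against 10.1, 23.9 and 19.9 CPM. Their log2 fold changes of 1.53 and 1.39 had blocked adjusted p of 0.0151 and 0.0275. Mastl, a kinase that keeps mitotic phosphorylation in place, was at 31.8, 15.6 and 11.5 against 4.51, 8.23 and 8.18 CPM (1.48, SE 0.46, blocked adjusted p = 0.0286), and differed by 0.94 without P16 shRNA replicate 3. Top2a, which decatenates sister chromatids, was at 257, 151 and 98.1 against 39.3, 83.3 and 94.1 CPM, with the nearest libraries close together (1.21, SE 0.47, blocked adjusted p = 0.0322). Without P16 shRNA replicate 3 Top2a differed by 0.76, and it lost its call without that library or without P16 replicate 1, P16 replicate 3 or P16 shRNA replicate 5. Anln and Hjurp, of the cleavage furrow and of centromere assembly, overlapped between the groups (edgeR adjusted p = 0.57 and 0.721), and passed with the block (blocked adjusted p = 0.0137 and 0.0341). Anapc2, a core subunit of the anaphase-promoting complex and not in the list, was lower, at 105, 100 and 113 against 190, 181 and 138 CPM (-0.68, SE 0.18, blocked adjusted p = 0.0111).

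The promoters of the mitosis list were searched for the same reason as above, and the lines were again picked for holding the letters. The cell cycle homology region (CHR, TTTGAA) is bound by MuvB complexes and the CCAAT box by NF-Y, and both are in capitals below as found on either strand. Of the mitosis lines only that of Top2a holds the CHR letters. The capitals of Cdca8 and Aurka are CCAAT boxes. The stretch of Top2a is chr11:99024190-99024339 on the minus strand, that of Cdca8 chr4:124936918-124937067 on the minus strand and that of Aurka chr2:172370571-172370720 on the minus strand. Mcm6, at chr1:128359706-128359855 on the minus strand, stands for the S phase list with TTTNNCGC, letters of the E2F site, in capitals.
Top2a: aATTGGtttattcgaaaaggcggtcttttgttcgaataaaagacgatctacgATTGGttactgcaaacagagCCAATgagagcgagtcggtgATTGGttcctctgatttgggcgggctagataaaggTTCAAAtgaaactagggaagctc
Cdca8: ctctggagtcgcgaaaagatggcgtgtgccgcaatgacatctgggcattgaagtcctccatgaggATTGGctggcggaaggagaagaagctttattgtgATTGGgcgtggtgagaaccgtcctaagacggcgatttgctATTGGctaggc
Aurka: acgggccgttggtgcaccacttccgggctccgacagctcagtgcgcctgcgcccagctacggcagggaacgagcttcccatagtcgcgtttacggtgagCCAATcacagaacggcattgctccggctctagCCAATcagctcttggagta
Mcm6: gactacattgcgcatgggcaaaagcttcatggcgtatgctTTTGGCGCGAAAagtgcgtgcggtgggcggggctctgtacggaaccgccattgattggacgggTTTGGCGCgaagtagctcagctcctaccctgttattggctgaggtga

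The CHR letters were in 46 of 70 mitosis promoters (65.7%) and in 17.9% of all promoters, and the CCAAT box was in 75.7% of them, in 59% of the S phase promoters and in 37.4% of all. The E2F letters were in 17 of 39 S phase promoters (43.6%), in 17.1% of the mitosis promoters, in 2.44% of the interferon response promoters and in 5.17% of all. These shares likewise describe the lists and are no test of the contrast. Sites of 2 motifs shared bases in at most 51 of all promoters for any pair. Within the mitosis list the 42 tested genes with the CHR letters and the 21 without had median log2 fold changes of 1.14 and 1.12. Within the S phase list the medians were 1.09 for 16 genes with the E2F letters and 0.96 for 18 without.

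Of the S phase and replication genes, 25 of 42 were higher and none lower at an unadjusted p, with a median of 0.98. At an adjusted p 22 were higher with the replicate block but only 1 with DESeq2. Rpa2, a subunit of the single-strand binding protein, was at 20.1, 23.3 and 27 CPM with P16 shRNA and at 6.29, 7.95 and 12.2 CPM with P16, with no overlap (log2 fold change 1.40, SE 0.30, blocked adjusted p = 0.00766). Mcm6, of the replicative helicase, was at 141, 77.6 and 68.0 against 27.1, 53.7 and 51.1 CPM (1.11, SE 0.39, blocked adjusted p = 0.0247). Mcm6 differed by 0.70 without P16 shRNA replicate 3, and lost its call without that library or P16 replicate 1. Rrm2, the regulated subunit of ribonucleotide reductase, was at 108, 80.1 and 92.7 against 21.5, 40.7 and 64.0 CPM (1.14, SE 0.40, blocked adjusted p = 0.0719) and lost its call without P16 replicate 3, P16 shRNA replicate 3 or P16 shRNA replicate 6. Its partner Rrm1, the 1 member below 0, was at 411, 245 and 196 against 305, 502 and 224 CPM (edgeR adjusted p = 0.818, blocked adjusted p = 0.56). The sliding clamp Pcna overlapped between the groups (0.69, SE 0.34, edgeR adjusted p = 0.484, blocked adjusted p = 0.0319). Without the libraries numbered 3 the median of the list was 0.74 with 15 genes higher. Its mean log2 CPM was 4.49 to 5.33 with P16 shRNA and 3.35 to 4.16 with P16. It was 3.75 to 4.48 with nc shRNA and 4.35 to 4.58 with empty vector.

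Among DNA repair genes 13 of 36 were higher and none lower at an unadjusted p, with a median of 0.75. Without the libraries numbered 3 the median was 0.51 and 1 gene was higher. Of the 14 tested histone genes 2 were higher, the variants H2ax (89.8, 54.5 and 82.0 against 24.2, 36.2 and 39.2 CPM, log2 fold change 1.17, SE 0.28, blocked adjusted p = 0.0517) and H2az1 (0.90, blocked adjusted p = 0.0148). Over all tested genes 5.33% were higher at an unadjusted p.

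The genes around the step that P16Ink4a acts on are G1 cyclins, kinases and members of the retinoblastoma and E2F families. Of 27 tested, 2 were higher and 2 lower at an unadjusted p, with a median of 0.39. Over all tested genes 5.33% were higher and 5.8% lower, so these counts are near those of any genes. Ccnd1, the cyclin D1 that activates Cdk4, was lower with P16 shRNA, at 268, 158 and 111 CPM against 588, 581 and 384 CPM. The groups did not overlap (log2 fold change -1.53, SE 0.37, blocked adjusted p = 0.001). Rbl2, the retinoblastoma relative p130 that serves quiescence, was lower as well, at 11.6, 13.7 and 7.59 against 43.2, 25 and 31.4 CPM (-1.60, SE 0.31, blocked adjusted p = 0.00322). Both genes were at levels near those of P16 in the nc shRNA cells, where Ccnd1 was at 557, 591 and 364 CPM and Rbl2 at 44.1, 35.0 and 34.2 CPM. E2f2 was higher at 5.31, 4.5 and 3.59 against 0.914, 1.29 and 2.21 CPM (1.58, SE 0.45, blocked adjusted p = 0.0287). Cdk4 was at 315, 241 and 333 against 212, 300 and 227 CPM (edgeR adjusted p = 0.679, blocked adjusted p = 0.514). Apart from Cdkn2a, the inhibitors Cdkn1a, Cdkn1b, Cdkn1c, Cdkn2b and Cdkn2c overlapped between the groups, and Cdkn2d was higher by 0.67 (SE 0.21, blocked adjusted p = 0.0597).

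The p53 targets lay on the other side of the cell cycle lists. Of 30 genes 8 were lower and none higher at an unadjusted p, with a median of -0.34. At an adjusted p 11 were lower and 1 higher with the replicate block, and 3 were lower with DESeq2. Without the libraries numbered 3 the median was -0.26 with 4 lower. It was -0.16 without P16 replicate 5 and -0.22 without P16 shRNA replicate 3. Mdm2, the ubiquitin ligase that p53 induces against itself, was at 165, 184 and 172 CPM with P16 shRNA and at 316, 340 and 328 CPM with P16. Both groups were tight and did not overlap (log2 fold change -0.92, SE 0.15, blocked adjusted p = 0.00997). The epoxide hydrolase gene Ephx1 differed by -0.88, at 198, 198 and 277 against 496, 425 and 312 CPM (blocked adjusted p = 0.0061), and the DNA polymerase gene Polk by -0.67. Cdkn1a, the p21 inhibitor, was at 203, 412 and 525 against 415, 308 and 641 CPM (-0.27, SE 0.41, edgeR adjusted p = 0.834, with the block -0.61 and blocked adjusted p = 0.00882). The groups overlapped, and within numbers 3 and 5 Cdkn1a differed by -0.60 and -0.64. The mean log2 CPM of the list was 5.36, 5.92 and 6.03 against 6.03, 5.77 and 6.25 and overlapped between the groups.

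**Figure D4:**
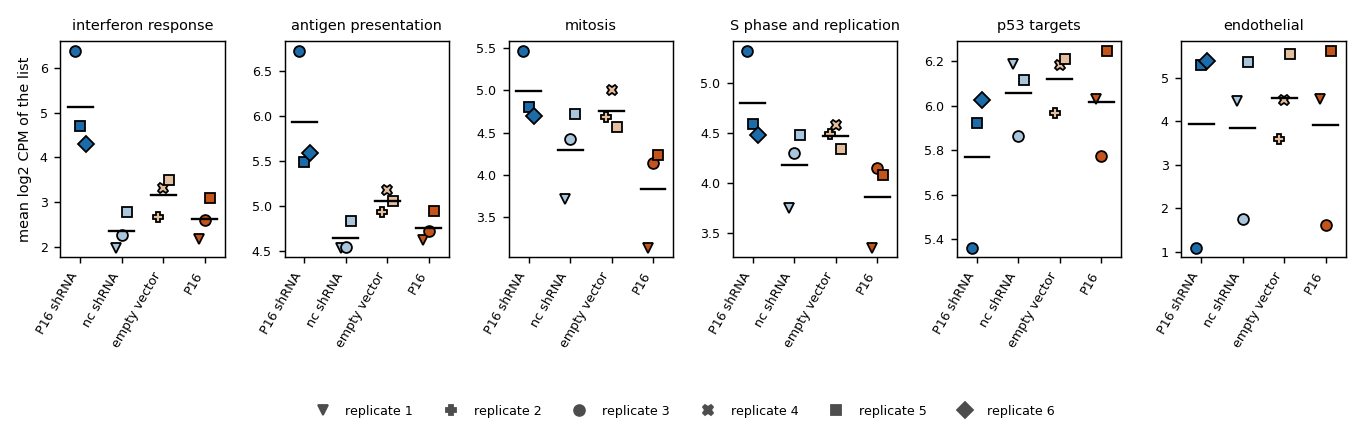
Mean log2 CPM of the tested members of 6 gene lists in the 12 Cd146+ libraries, with 1 point per library shaped by replicate number and the group mean as a line. For the interferon response, antigen presentation, mitosis and S phase every P16 shRNA library lies above every P16 library, whereas the p53 target and endothelial levels overlap and the endothelial level is lowest in the libraries numbered 3.

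The genes with the smallest p among those lower in the P16 shRNA cells belonged to no single list. Sulf2, which trims heparan sulfate at the cell surface, was at 75.3, 55.9 and 54.1 CPM with P16 shRNA and at 341, 256 and 205 CPM with P16. The groups did not overlap (log2 fold change -2.11, SE 0.25, blocked adjusted p = 0.001). Reep3, a protein of the endoplasmic reticulum, was at 21.5, 28 and 21.2 against 111, 76.5 and 72.1 CPM (-1.88, SE 0.23, blocked adjusted p = 0.00106). Gsk3b, the kinase that marks beta-catenin for degradation, was at 53.6, 57.1 and 47.8 against 156, 128 and 120 CPM (-1.35, SE 0.17, blocked adjusted p = 0.00106). Efemp2, the fibulin of elastic fibres, was at 60.9, 86.4 and 113 against 485, 329 and 276 CPM (-2.07, SE 0.31, blocked adjusted p = 0.00124). In the nc shRNA libraries these 4 genes were at levels near those of the P16 libraries, with Sulf2 at 401, 317 and 192 CPM, Reep3 at 97.0, 74.8 and 74.0 CPM, Gsk3b at 152, 132 and 120 CPM and Efemp2 at 437, 268 and 280 CPM. The vector difference for them, nc shRNA minus empty vector, was between -0.08 and 0.38 on the log2 scale. Tradd, an adaptor of the TNF receptor, the metalloproteinase Adamts10 and Ogdhl had log2 fold changes of -1.22, -0.99 and -1.28.

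Loci without a known product were also among the smallest p. The unnamed gene model Gm28661 was at 7.62, 10.52 and 15.3 CPM with P16 shRNA and at 52.2, 49.5 and 41.1 CPM with P16 (log2 fold change -2.10, SE 0.28, blocked adjusted p = 0.001). It was at 8.22 to 8.63 CPM in the nc shRNA libraries and at 53.3, 17.6 and 7.16 CPM in those with empty vector. The ribosomal protein pseudogene Rpl19-ps11, whose reads may be shared with its parent, was lower as well (-1.52, SE 0.22, blocked adjusted p = 0.00153). With the vector difference taken off, Gm28661 differed by -0.48 and Rpl19-ps11 by -0.79, and neither passed an unadjusted p.

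Outside the interferon response, the genes with the smallest p among those higher were Tro, Cxcr6 and Rnf128. Tro, or trophinin, an adhesion molecule, stayed low at 3.04, 1.6 and 2.51 CPM against 0.4, 0.28 and 0.401 CPM (log2 fold change 2.70, blocked adjusted p = 0.085). Cxcr6, a chemokine receptor, was at 6.59, 3.84 and 4.67 CPM with P16 shRNA and at 1.26, 1.23 and 1.0 CPM with P16 (log2 fold change 2.10, SE 0.37, blocked adjusted p = 0.006). Rnf128, a ubiquitin ligase, was at 36, 40.9 and 41.7 against 23.5, 19.9 and 19.2 CPM (0.92, SE 0.16, blocked adjusted p = 0.0075). For both genes nc shRNA exceeded empty vector, by 1.61 and 0.98 on the log2 scale. With the vector difference taken off, their contrasts were 0.49 and -0.07 for Cxcr6 and Rnf128, and neither passed an unadjusted p.

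**Figure D5:**
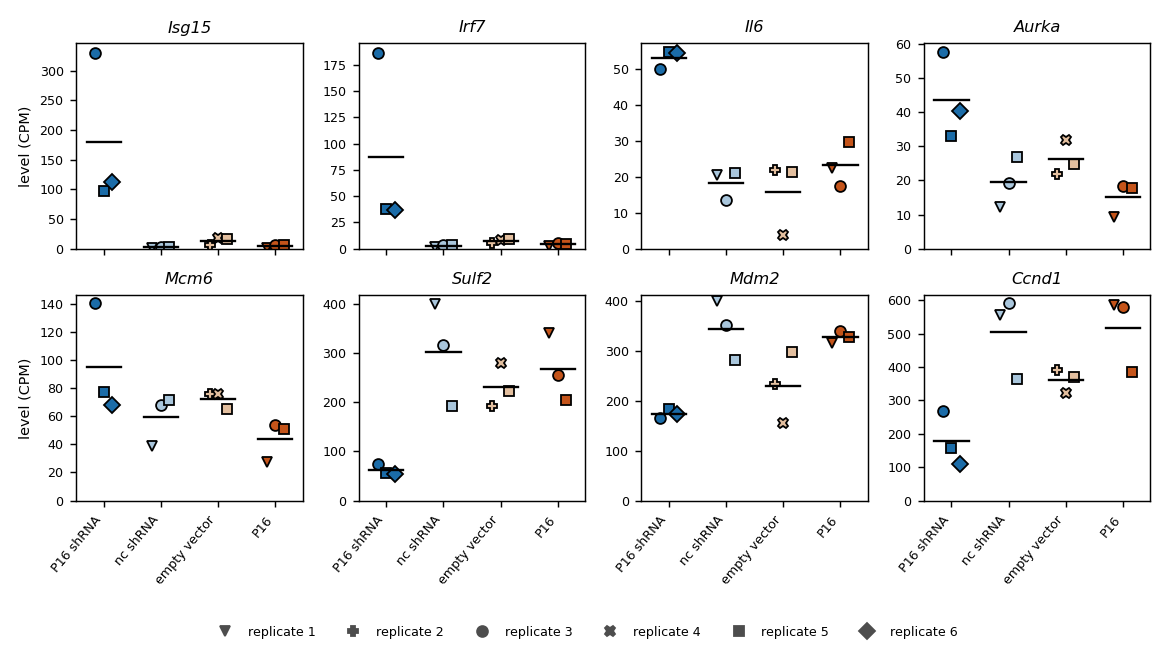
Levels in CPM of 8 genes in the 12 Cd146+ libraries by construct, with 1 point per library shaped by replicate number and the group mean as a line. Isg15, Irf7, Il6, Aurka and Mcm6 are higher in all P16 shRNA libraries than in all P16 libraries, and Sulf2, Mdm2 and Ccnd1 are lower in all of them.

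Of the 41 tested senescence-associated secretory genes 2 were higher and 2 lower at an unadjusted p, with a median of -0.01. The shares over all tested genes were 5.33% higher and 5.8% lower. Timp2, an inhibitor of matrix metalloproteinases, was at 2096, 1858 and 2141 CPM with P16 shRNA and at 6907, 4075 and 2523 CPM with P16. The P16 shRNA libraries were close together below the spread-out P16 libraries (log2 fold change -1.15, SE 0.36). With the block Timp2 differed by -0.70 (blocked adjusted p = 0.0191), and by -0.70 without P16 replicate 1, and its call was lost without P16 shRNA replicate 5. Vegfa, the main growth factor of endothelium, was at 138, 161 and 142 against 338, 186 and 226 CPM (-0.77, SE 0.24, with the block -0.47 and blocked adjusted p = 0.0167). Vegfa differed by -0.49 without P16 replicate 1 and lost its call without P16 shRNA replicate 6. The bZIP factor Mafk was at 67.9, 79.2 and 79.1 against 150, 121 and 126 CPM (-0.82, SE 0.16, blocked adjusted p = 0.00624). Fos, of the AP-1 factor, overlapped between the groups at 21.0, 12.9 and 15 against 123, 40.1 and 18.8 CPM (-1.88, SE 0.66). With the block Fos differed by -0.74 (blocked adjusted p = 0.0137) and within replicate number 5 by -0.54. Without P16 replicate 1 it differed by -0.86, and its call was lost without that library or without P16 shRNA replicate 5 or 6.

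The endothelial genes differed in direction with the way libraries were compared. Of 28 tested endothelial genes 1 was lower and none higher at an unadjusted p (median 0.16), and this was Cd34, whose groups overlapped. Over all tested genes 5.8% were lower and 5.33% higher. Cd34 lost its call without P16 replicate 1 or any of the P16 shRNA libraries. Within replicate number 3 the median was -0.73 with 9 of 28 genes higher, and within number 5 it was -0.35 with 4 higher. With the block it was -0.35, and with a term for Y-linked transcripts -1.39. Of 13 tested sinusoidal endothelial genes none was called at an unadjusted p (median 0.13), and the median was -0.14 within number 3 and -0.05 within number 5. The mean log2 CPM of the endothelial list ran from 1.10 to 5.39 with P16 shRNA and from 1.62 to 5.63 with P16, with the lowest value of each group in replicate 3. With the replicate block 3 endothelial and 2 sinusoidal genes were lower and none higher at an adjusted p.

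The junction and permeability list had 4 of 28 genes lower, Pkp4, Rac1, Jam2 and Vcl, and none higher at an unadjusted p (median -0.17), and each of the 4 lost its call without P16 replicate 1 and without at least 2 other libraries in turn. The angiogenesis and matrix remodelling list had 3 of 36 lower and none higher (median -0.21), with Adam10, a sheddase of Notch and cadherins, at 141, 105 and 90.5 against 347, 348 and 210 CPM (log2 fold change -1.43, SE 0.28, blocked adjusted p = 0.0023). Of 34 oxidative stress and antioxidant genes 2 were higher and 3 lower (median -0.05). Over all tested genes 5.33% were higher and 5.8% lower at an unadjusted p. The heme oxygenase gene Hmox1 was at 98.0, 260 and 250 against 306, 331 and 582 CPM, with differences of -1.76 and -1.16 within numbers 3 and 5 (edgeR adjusted p = 0.453, blocked adjusted p = 0.00321).

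The lists of other cell types give the make-up of the libraries, with calls at an unadjusted edgeR p followed by those of the block at an adjusted p. Over all tested genes 5.33% were higher and 5.8% lower without the block, and 5.03% and 6.75% with it. Collagen and mesenchymal genes summed to 69981 to 78674 CPM with P16 shRNA and to 65957 to 77763 CPM with P16, and 2 of 28 were lower and none higher, against 5 lower and 2 higher with the block. The 25 macrophage genes summed to 32.2 to 448 against 45.7 to 580 CPM, and none of the 21 tested was called, against 2 lower with the block. Cholangiocyte genes summed to 165 to 594 against 73.5 to 331 CPM with none of 10 called, against 1 higher with the block. Hepatocyte genes summed to 114 to 456 against 309 to 519 CPM with Apoa2 higher, a call lost without any 1 of 5 libraries, and 1 of 4 lower with the block. Lymphoid genes summed to 6.05 CPM or below. The defining genes Alb and Cd3e were at 0.471 CPM or below in each library. Of the 6 libraries, P16 shRNA replicate 3 had the highest interferon response level. It also had the lowest macrophage sum (32.2 CPM) and the lowest endothelial mean log2 CPM (1.10). Whether make-up and interferon response level are linked was not tested.

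Between nc shRNA and empty vector 278 of 14976 genes (1.86%) were higher and 319 (2.13%) lower at an unadjusted edgeR p. None passed an edgeR adjusted p, against 5 with DESeq2. These controls share only replicate number 5, so their difference, and the values with it taken off, also hold differences between replicates. Col1a1 was at 465 CPM in empty vector replicate 4, and Pecam1 at 10 CPM in nc shRNA replicate 3. In the interferon response list this vector difference ran the other way from the contrast of the constructs, with 24 genes lower and none higher in nc shRNA and a median of -0.65. In mitosis its median was -0.44 with 2 lower, in S phase -0.28 with 1 higher, and in antigen presentation -0.33 with 3 lower. With the vector difference taken off, the medians were 3.13 for the interferon response, 1.61 for mitosis, 1.31 for S phase, 1.31 for antigen presentation and -0.34 for the p53 targets. The median of the inflammatory chemokines and caspases was then 0.27, with 4 genes higher and none lower at an unadjusted p. Of the genes given above, Il6 (0.97), Casp4 (0.81), Irgm1 (1.16), Vegfa (-0.83), Fos (-2.28), Adamts10 (-0.45), Cd34 (-1.71), Pkp4 (-0.24), Jam2 (-0.27) and Apoa2 (2.25) also no longer passed an unadjusted p then.

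The comparison most like this one is the same contrast in Cd31+ cells, the general endothelial fraction, over 6 other libraries. There the medians were 0.93 for the interferon response, 0.50 for mitosis, 0.44 for S phase, 0.37 for antigen presentation and -0.22 for the p53 targets, and Cdkn2a had a log2 fold change of -5.13. The difference between the contrasts had an unadjusted edgeR p under 0.05 in 634 of 15649 genes (4.05%), among them 14 of the interferon response, 8 of mitosis, 3 of S phase and none of antigen presentation. It passed an adjusted p under 0.05 in 6 genes (0.0383%), none of them in these lists, and by edgeR in none without the Cd146+ libraries numbered 3. The difference between the medians of the populations was not tested.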

How the data were processed

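RNA of 24 libraries was sequenced, of which 12 are of Cd146+ cells and 6 form the comparison. The authors had the non-directional libraries sequenced and quantified by a service provider and deposited 1 table with the read count and the FPKM of 56748 genes in each library, and the deposited FPKM is the count divided by gene length and mapped total. The submitters' processing notes name fastp and mm9, but the coordinates of the table did not match that build and none is printed. The authors' fold changes and p-values in the table were not used. Strand is not kept, so reads of overlapping or antisense genes cannot be told apart.

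Counts were fitted in R 4.3.3 with the quasi-likelihood test of edgeR 4.0.16 (filterByExpr, TMM, robust, limma 3.58.1) over the 6 libraries, as a two-sided test whose p-values were adjusted by the Benjamini-Hochberg method across the whole table of tested genes. The scripts were tested on simulated data. DESeq2 1.42.0, other filters and scalings, a fit over 12 libraries, the replicate block, the vector difference taken off and leaving out each library were alternatives. Leaving out both libraries numbered 3 and a term for Y-linked transcripts were added after seeing the data. Log2 CPM used a prior count of 2. The floor of 3 counts covers counting error only.

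Replicate numbers were taken as pairing the libraries: deviations from the group means in the Cd146+ libraries correlated with a median r of 0.711 (0.389 to 0.873) over 10 pairs with the same number and of -0.0724 over 44 pairs with different numbers. The source of the pairing is the data, since the labels give only the number.

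Members and lists were chosen with earlier results of these data known. Named genes were Cdkn2a, genes the study's text names, per direction the 10 non-overlapping genes of lowest p, and of each list the 5 most abundant members and the 3 with the smallest p. Some were left out of the text. Ifitm1 and the marker genes of the library checks were named outside this rule. Of the named genes, 1 is not reported here.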

Additional observations from a re-analysis of the deposited data

Results flagged for a closer look

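For 6 loci the contrast of P16 shRNA with P16 differed between Cd146+ and Cd31+ cells at an edgeR adjusted p under 0.05. All were lower with P16 shRNA in Cd146+ cells and higher in Cd31+ cells. The difference of the log2 fold changes, Cd146+ minus Cd31+, was -3.89 for the gene model Gm28661 (-2.10 and 1.77, adjusted p = 0.0367), -4.66 for Gm11263 (-2.58 and 2.07, adjusted p = 0.0367) and -3.70 for mt-Co2, a mitochondrial subunit of cytochrome c oxidase (-2.11 and 1.58, adjusted p = 0.0399). It was -2.47 for the ribosomal protein pseudogene Rpl19-ps11 (-1.52 and 0.94, adjusted p = 0.0399), -2.03 for Gm12715 (-1.30 and 0.72, adjusted p = 0.0481) and -2.30 for Gm28437 (-1.30 and 0.99, adjusted p = 0.0481). Reads of pseudogenes and gene models can be shared with other loci, so these values are uncertain. Whether mt-Co2 shares reads with any of them was not tested, so the 6 loci may not be separate results.

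The following levels were scaled over the 12 libraries of both populations with P16 shRNA or P16 and so differ slightly from those given above. For mt-Co2 the Cd146+ libraries were at 8.27, 12.9 and 20.6 CPM with P16 shRNA and at 70.8, 58.2 and 52.8 CPM with P16, and the Cd31+ libraries at 57.6, 39.3 and 48.3 CPM and at 15.1, 22.1 and 11.3 CPM. Gm28661 showed the same order, with 35.6 to 47.7 CPM against 6.75 to 17.2 CPM in the Cd31+ libraries. Without both Cd146+ libraries numbered 3, or without 1 library in turn, 0 to 3 genes passed. These 6 loci were named after their values were seen.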

How the results depend on the processing

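Cdkn2a kept its direction and its side of the threshold under all alternatives, from -5.71 to -4.42. Genes at an unadjusted p numbered 1663 in the comparison, 2809 with the replicate block over 6 libraries, 4664 with the replicate block over 12 and 772 to 1976 with 1 library left out. At an adjusted p there were 0, against 33 with all genes of at least 1 count, 5 with the 12 libraries in 1 fit, 318 with DESeq2 1876 with the replicate block over 12 libraries and 0 with the replicate block over the 6 compared libraries. For the vectors 597 genes became 932 with all genes, 324 with the replicate block and 184 to 1510 with 1 library left out (lowest when nc shRNA replicate 3 is dropped, 227 for nc shRNA replicate 1, 291 for empty vector replicate 4, highest for nc shRNA replicate 5), and 5 passed an adjusted p with DESeq2. For the difference between Cd146+ and Cd31+ cells 634 genes became 1542 without both Cd146+ libraries numbered 3 and 361 to 1752 with 1 library left out (highest without Cd146+ P16 shRNA replicate 3, lowest without Cd146+ P16 replicate 1). The 6 at an adjusted p became 24 with DESeq2, 5 with the replicate block, 0 without both Cd146+ libraries numbered 3 and 0 to 3 with 1 library left out. The interferon response median of 2.46 was 1.36 without both libraries numbered 3 and 1.34 to 3.15 with 1 library left out, and the DNA repair median of 0.75 was 1.21 with the vector difference taken off. Rnf128 reversed to -0.072 with the vector difference taken off, by construction, since nc shRNA exceeded empty vector. The other 75 of 76 named genes past an unadjusted p kept their direction, and 19 of them lost the call with the vector difference taken off, 13 without both libraries numbered 3, 4 with the replicate block over 12 libraries and 9 to 18 with 1 library left out. Where no cause is named, the cause was not tested.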
